A study of Mus musculus with 16 samples.

Results

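The genes described here encode nuclear-coded subunits of the oxidative phosphorylation machinery of mitochondria, measured in cells sorted from the mouse olfactory mucosa. They were taken by gene symbol: every probe set whose platform symbol begins with Ndufa, Ndufb, Ndufc, Ndufs or Ndufv (complex I, with the assembly factors of the Ndufaf series left out), equals Sdha, Sdhb, Sdhc or Sdhd (complex II), begins with Uqcr (complex III), begins with Cox4i, Cox5, Cox6, Cox7 or Cox8 (complex IV), or begins with Atp5 (complex V). This gave 85 genes of 19505 named genes on the array, with 1 probe set each: 38 of complex I, 4 of complex II, 8 of complex III, 18 of complex IV and 17 of complex V. The rule uses symbols and no measured value, but it was proposed with earlier results of these data known. Of the 85, 78 read above the median negative control in all 16 libraries, and 65 read above the 95th percentile of the negative controls in all 16. Cox4i2, Cox7b2, Cox8b and Ndufa4l2 did not read above the median negative control in any library.

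Oxidative phosphorylation couples the oxidation of nutrients to the making of ATP. Complexes I and II pass electrons from NADH and succinate to ubiquinone, complex III passes them on to cytochrome c, and complex IV hands them to oxygen. Complexes I, III and IV pump protons across the inner mitochondrial membrane, and complex V, the ATP synthase, uses the gradient to make ATP. Some subunits have isoforms made mainly in muscle, testis or hypoxic tissue beside the form found in most tissues. Olfactory sensory neurons spend ATP on ion pumping after odor-evoked currents and on cAMP synthesis in their cilia, and they use both glycolysis and mitochondria to supply it.

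All animals were S100a5-tauGFP mice on C57BL/6, in which a GFP reporter is placed under S100a5, a calcium-binding protein gene of olfactory sensory neurons whose expression rises with activity. The 24 mice of both sexes, aged 7 to 12 weeks, sat singly in chambers of flowing clean air for 40 hours. From hour 26 onward they received pulses of 10 s every 20 min, of filtered air in the vehicle groups and of the banana-like odorant isoamyl acetate in the odor groups. Dissociated mucosa of 3 mice was pooled for each sort, and each of the 8 pools yielded a pair of libraries, one titled GFP+ and the other titled GFP-. With 2 sorts and 2 agents this makes 4 groups of 4 libraries, and each replicate is a pool. Which sexes made up which pool was not used here. All values are log2 signals of Clariom S arrays, so that 1 unit stands for a doubling of the signal. Within a group, values are given in the order of pools 1 to 4.

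The titles and the cell type field of the labels give opposite GFP signs in all 16 samples, so the groups are named by their titles, and each sort difference is the library titled GFP+ minus the library titled GFP-. S100a5 itself was lower in the libraries titled GFP+, by -1.18 (SE 0.21, limma adjusted p = 0.000442) in vehicle and -1.25 (SE 0.21, adjusted p = 0.000222) in odor, which goes against the titles. If the cell type field holds, each sort difference below turns its sign when read as GFP-positive minus GFP-negative cells. Array medians were 6.79 to 6.90 in the libraries titled GFP+ and 6.42 to 6.52 in those titled GFP-, so the deposited arrays do not share a median. Differences are therefore given both as deposited and after centring each array on its median, which lowers the median sort difference of all probe sets from -0.13 to -0.50 in vehicle and from -0.14 to -0.50 in odor.

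As deposited, the subunits read somewhat lower in the libraries titled GFP+. The median sort difference over the 85 was -0.19 in vehicle, with 74 below 0, and -0.28 in odor, with 80 below 0. Over all 22206 tested probe sets the medians were -0.13 and -0.14, and 67.7% of probe sets were below 0 in each comparison. Over the 6555 probe sets with a mean above the 95th percentile of the negative controls the medians were -0.09 and -0.15, and the 69 subunits among them had medians of -0.18 and -0.28. In bulk RNA of sorted cells, fewer cells of a type and less RNA per cell cannot be told apart.

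Few single subunits passed the test. In vehicle, limma called 5 of the 85 lower in the libraries titled GFP+ (5.88%, against 7.16% of all probe sets) and 1 higher (1.18%, against 10.2%), so the share called lower was no larger than that of the array. The 5 were Ndufv3, Ndufa5 and Ndufa9 of complex I and the isoforms Cox7a1 and Cox8c of complex IV, and the one called higher was Cox6b2. In odor, 17 were called lower (20%, against 9.86% of all probe sets) and 1 higher, again Cox6b2 (against 11%). The 17 comprised 11 of complex I, 3 of complex IV and 1 each of complexes II, III and V. Ndufv3, Ndufa5, Ndufa9 and Cox7a1 were called lower in both. The larger number in odor is not a tested difference: 0 of the 85 were called in the interaction of odor and sort. When only the brighter probe sets were tested, 9 of 69 subunits were called lower in vehicle (13%, against 7.64%) and 19 of 69 in odor (27.5%, against 15.4%). With the pool as a block, 10 of 85 were called lower in vehicle (11.8%, against 10.2%) and 23 in odor (27.1%, against 14.2%).

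The number of subunits called depended on the scaling. After centring on array medians, 78 of 85 were called lower in vehicle (91.8%, against 62.5% of all probe sets) and 80 in odor (94.1%, against 61.6%). Cox6b2 was the 1 called higher in each (against 7.93% and 8.44% of all probe sets), and in vehicle 70.4% of all probe sets were called in one direction or the other. These calls came with member medians of -0.56 and -0.64 beside -0.50 over all probe sets in each. After quantile normalization 12 were called lower in vehicle (against 13.3% of all probe sets, with 9.67% higher) and 16 in odor (against 14.9%). With arrays centred instead on the mean of 25 mature olfactory neuron markers, 3 were called lower in vehicle (3.53%, against 4.35%) and 1 in odor (1.18%, against 4.09%), with medians of -0.12 and -0.13 beside -0.06 and 0.01 over all probe sets. Centring shifts each gene of an array by the same amount, so the distance of the subunits from the rest of the array stays as it was. Leaving out 1 library also moved the count as deposited by more than 1.5 times. In vehicle it was 8 without titled GFP+ replicate 1 and 3 without titled GFP- replicate 1, and in odor it was 11 without titled GFP+ replicate 1, 8 without titled GFP+ replicate 4, 9 without titled GFP- replicate 1 and 11 without titled GFP- replicate 4.

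**Figure D1:**
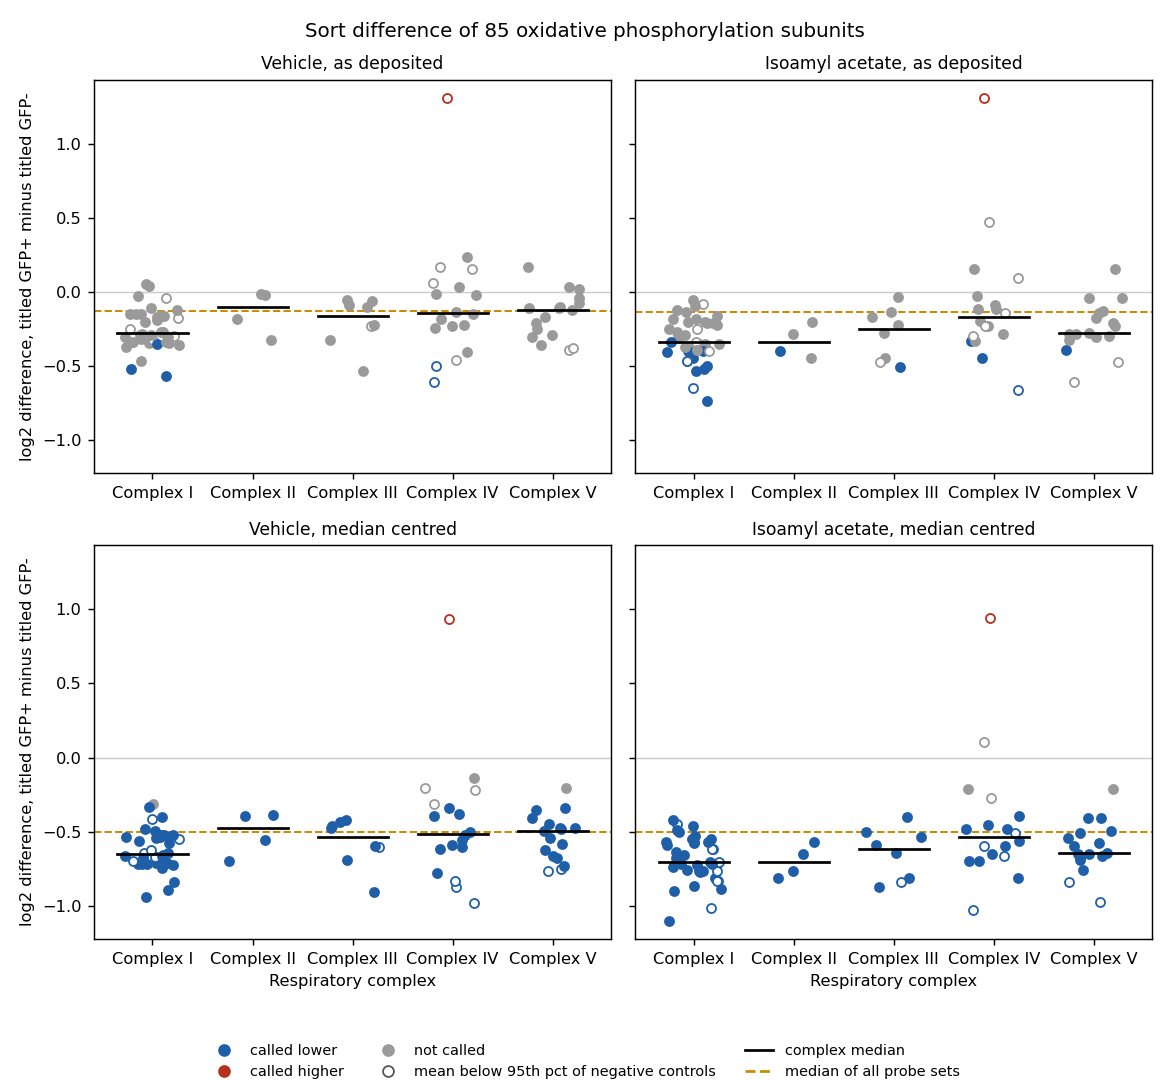
Sort difference (log2, titled GFP+ minus titled GFP-) of each of the 85 subunits, by respiratory complex, in vehicle and isoamyl acetate mice, as deposited (top) and after centring arrays on their medians (bottom). Each point is a gene, coloured by limma's call and open where its mean is below the 95th percentile of the negative controls; black bars are complex medians and the dashed line is the median of all probe sets. As deposited 5 and 17 points are called lower, after centring 78 and 80, and the point far above the others is Cox6b2, whose signals are of the size of the background.

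Pools differed in how far the subunits lay below the rest of the array. As deposited, the median difference over the 85 was -0.10, -0.29, -0.26 and -0.12 in vehicle pools 1 to 4, beside -0.11, -0.10, -0.10 and -0.10 over all probe sets. In the odor pools it was -0.28, -0.13, -0.21 and -0.43, beside -0.13, -0.14, -0.07 and -0.12. Vehicle pools 2 and 3 and odor pools 1, 3 and 4 thus had subunits below the array's median, while vehicle pools 1 and 4 and odor pool 2 had them close to it. Over the brighter probe sets the median of odor pool 1 was -0.23, nearer to that of its subunits. The median of the negative controls also differed, by -0.46, -0.23, -0.07 and -0.27 in vehicle pools 1 to 4. In the odor pools it differed by 0.01, -0.22, -0.02 and -0.14. The part of this background shift in the subunits' differences was not tested. The number of subunits lower in the library titled GFP+ ran from 55 in vehicle pool 1 to 83 in odor pool 4. Of the 85, 33 were lower in all 8 pools and 21 in 7, against 15.1% of all probe sets and 23.4% of the brighter ones lower in all 8. Cox6b2 was higher in all 8.

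**Figure D2:**
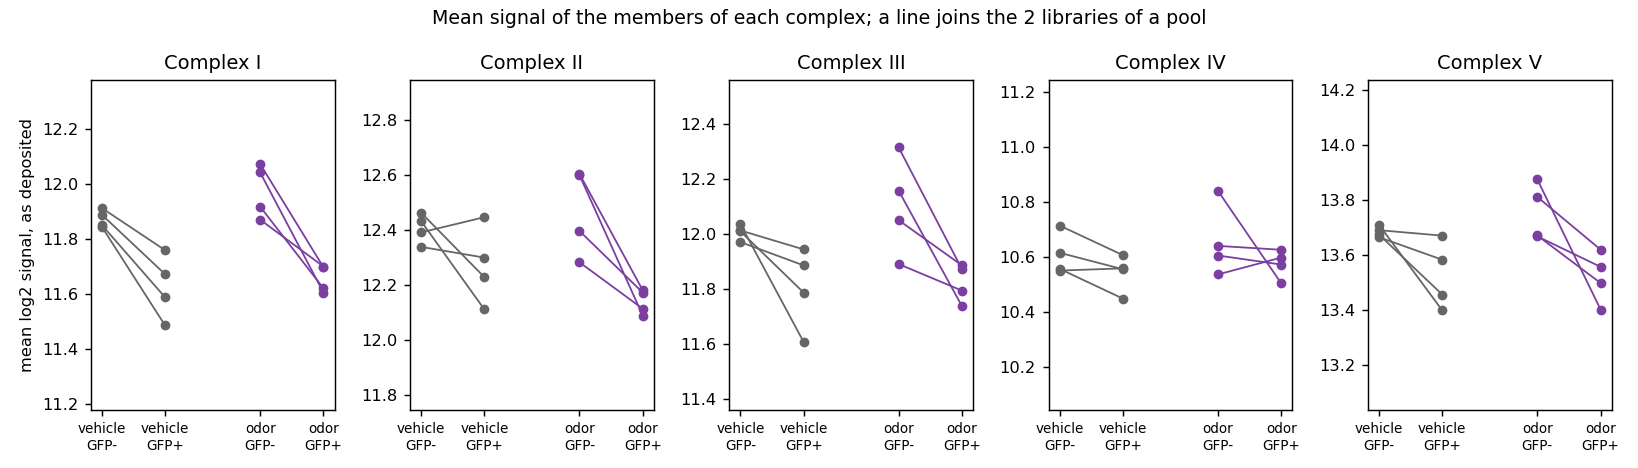
Mean log2 signal, as deposited, of the members of each respiratory complex in every library, with a line joining the titled GFP- and titled GFP+ library of a pool (vehicle in grey, isoamyl acetate in purple). The complex I line falls in all 8 pools, from 11.84 to 12.07 in the libraries titled GFP- to 11.49 to 11.76 in those titled GFP+, while complex IV has lines in both directions.

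Complex I, which takes electrons from NADH, had a median sort difference of -0.28 in vehicle and -0.34 in odor, with 36 and 38 of its 38 members below 0. Its mean signal in the libraries titled GFP+ was 11.76, 11.49, 11.59 and 11.67 in vehicle and 11.70, 11.70, 11.62 and 11.61 in odor. The libraries titled GFP- read 11.91, 11.84, 11.85 and 11.89 in vehicle and 12.07, 11.87, 11.92 and 12.04 in odor. The groups did not overlap under either agent.

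Ndufv3, an accessory subunit of the flavoprotein part where NADH is oxidised, had the largest difference of the complex. In vehicle it read 10.32, 9.54, 10.12 and 10.14 in titled GFP+ and 10.38, 10.65, 10.74 and 10.60 in titled GFP- (difference -0.57, SE 0.15, limma adjusted p = 0.0132). In odor it read 9.85, 9.99, 9.99 and 10.01 in titled GFP+ and 10.88, 10.69, 10.59 and 10.62 in titled GFP- (difference -0.73, SE 0.15, adjusted p = 0.00165). The groups did not overlap under either agent, and the spread among vehicle libraries titled GFP+ came mostly from the low value of pool 2. Ndufv3 remained called in both agents when arrays were centred on neuron markers (-0.50, adjusted p = 0.0481, and -0.59, adjusted p = 0.017).

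Ndufa5, an accessory subunit of the matrix arm, was as regular. It read 11.74, 11.58, 11.69 and 11.61 in vehicle titled GFP+ and 12.29, 12.13, 12.07 and 12.20 in vehicle titled GFP- (difference -0.52, SE 0.10, limma adjusted p = 0.00148). In odor the values were 11.72, 11.57, 11.64 and 11.64 against 12.01, 11.90, 12.08 and 12.15 (-0.40, SE 0.10, adjusted p = 0.0108). All 8 libraries titled GFP+ lay below all 8 titled GFP-.

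Ndufa9, another accessory subunit of the matrix arm, differed by -0.35 in vehicle (SE 0.11, limma adjusted p = 0.0431) and by -0.45 in odor (adjusted p = 0.00974). It read 12.83, 12.52, 12.66 and 12.49 in vehicle titled GFP+ against 13.04, 12.94, 13.04 and 12.90 in vehicle titled GFP-. In odor it read 12.64, 12.59, 12.54 and 12.49 against 13.12, 12.90, 12.86 and 13.15. The groups did not overlap, but the vehicle call sat at the edge of the threshold and was lost in 7 of 8 fits that left out 1 library, with adjusted p up to 0.121 without titled GFP+ replicate 4.

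Ndufa11, a subunit of the membrane arm, read 11.35, 11.50, 11.23 and 11.46 in odor titled GFP+ against 11.92, 11.94, 11.91 and 11.88 in odor titled GFP- (-0.53, SE 0.12, limma adjusted p = 0.00432). The 4 libraries titled GFP- were close to each other and all above the others. In vehicle the values were 11.54, 11.06, 11.55 and 11.38 against 11.61, 11.77, 11.74 and 11.80, with no overlap and a difference of -0.35 that missed the threshold (adjusted p = 0.0632). Ndufb10, which also lies in the membrane arm, read 7.58, 8.05, 7.76 and 7.84 in odor titled GFP+ and 8.78, 8.21, 8.52 and 8.31 in odor titled GFP- (-0.64, SE 0.17, adjusted p = 0.0112). In vehicle its groups overlapped (-0.18, adjusted p = 0.519), and in no library did it reach the 95th percentile of the negative controls.

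The other 6 calls of complex I in odor were smaller or closer to the threshold. Ndufa2 (-0.52, adjusted p = 0.0205), Ndufb6 (-0.50, adjusted p = 0.0472), Ndufb8 (-0.46, adjusted p = 0.0475), Ndufb4 (-0.41, adjusted p = 0.022), Ndufc1 (-0.40, adjusted p = 0.0382) and Ndufs4 (-0.34, adjusted p = 0.0396) were called there by limma and not in vehicle. Their vehicle differences lay between -0.20 for Ndufs4 and -0.47 for Ndufb6. Ndufb4 has a copy gene, Ndufb4b, with similar differences of -0.30 and -0.36, and probes of one may also read RNA of the other. Left out one at a time, single odor libraries ended the calls of Ndufb6 and Ndufs4 in 7 of 8 fits, of Ndufb8 in 6, of Ndufc1 in 5, of Ndufa2 in 4 and of Ndufb4 in 1.

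By role, the 11 b-series subunits of the membrane arm had a median of -0.29 in vehicle and -0.40 in odor, with 4 called lower in odor. The 6 core subunits measured, most of which carry a flavin or iron-sulfur centre, had medians of -0.15 and -0.28. None was called as deposited (limma, lowest of their differences -0.37 for Ndufs1 in vehicle and -0.39 for Ndufs7 in odor). With the pool as a block Ndufs1 was called in both agents (adjusted p = 0.0495 and 0.0448). Ndufs3 had the smallest odor difference of the complex, at -0.06 (95% interval -0.40 to 0.28). Ndufa4, taken here with complex I by its symbol although it is known to associate with complex IV, differed by -0.34 in vehicle and -0.35 in odor (adjusted p = 0.144 and 0.112).

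Complex II, succinate dehydrogenase, links the tricarboxylic acid cycle to the chain. Sdhc, one of its membrane anchors, was its one called member, at 11.50, 11.84, 12.10 and 11.80 in odor titled GFP+ against 12.12, 12.21, 12.31 and 12.19 in odor titled GFP- (-0.40, SE 0.12, limma adjusted p = 0.0298). In vehicle it read 11.96, 11.99, 12.04 and 11.95 against 12.18, 12.32, 12.41 and 12.33 (-0.32, adjusted p = 0.0832). The groups did not overlap in either agent, and the odor call was lost in 4 of 8 fits without a library, most without titled GFP+ replicate 1 (adjusted p = 0.105).

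Sdha, the flavoprotein that oxidises succinate, had a difference of -0.02 in vehicle (95% interval -0.35 to 0.31) and -0.45 in odor (-0.78 to -0.12, limma adjusted p = 0.0523). It read 10.85, 11.03, 10.96 and 11.06 in odor titled GFP+ and 11.73, 11.33, 11.09 and 11.54 in odor titled GFP-, with no overlap. The vehicle libraries read 11.52, 11.26, 11.10 and 11.10 against 11.06, 11.57, 11.32 and 11.11 and did overlap. Sdhb, the iron-sulfur subunit, differed by -0.18 and -0.20, and Sdhd, the other anchor, by -0.01 and -0.28, with neither called.

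Complex III carries electrons from ubiquinol to cytochrome c. Uqcrc2, a core protein, read 10.84, 10.74, 11.01 and 10.78 in odor titled GFP+ and 11.35, 11.31, 11.20 and 11.52 in odor titled GFP-, with no overlap (-0.50, SE 0.13, limma adjusted p = 0.00828). In vehicle it read 11.07, 11.02, 10.81 and 11.04 against 10.91, 11.30, 11.35 and 11.27, and the groups overlapped (-0.22, adjusted p = 0.25). No other complex III gene taken by the rule was called as deposited. Cyc1, a complex III subunit outside the rule, is given further below.

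Uqcr10, a small accessory subunit, had a vehicle difference as large, -0.54, and an odor difference of -0.44 (limma adjusted p = 0.0611 and 0.109). It was lower in the library titled GFP+ of all 8 pools. With the pool as a block it was called in both agents (adjusted p = 0.0113 and 0.0241). Uqcrb differed by -0.09 and -0.03, and Uqcrq by -0.05 and -0.13, both accessory subunits and neither called.

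Complex IV, cytochrome c oxidase, had the smallest median difference in odor, -0.17, and its median in vehicle was -0.14. Its members also spread most widely. Among the ubiquitous subunits, Cox7b read 13.13, 12.75, 12.93 and 12.75 in odor titled GFP+ and 13.36, 13.09, 13.30 and 13.59 in odor titled GFP- (-0.44, SE 0.14, limma adjusted p = 0.0315). These groups overlapped, but the library titled GFP+ was the lower one in every pool. In vehicle Cox7b read 12.95, 12.47, 12.57 and 12.82 against 13.11, 13.11, 13.08 and 13.13, with no overlap and a difference of -0.40 (adjusted p = 0.0557).

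Cox5a, a subunit on the matrix side, read 12.82, 12.81, 12.88 and 12.81 in odor titled GFP+ and 13.25, 12.98, 13.20 and 13.21 in odor titled GFP- (-0.33, SE 0.11, limma adjusted p = 0.0403). The groups did not overlap, and the vehicle difference was -0.22 (adjusted p = 0.186). The odor calls of Cox5a and Cox7b were lost in 7 and 5 of 8 fits without a library, with adjusted p up to 0.101 and 0.0927. Cox6c (0.03 and -0.03) and Cox8a (-0.01 and -0.11) had differences near 0 as deposited. Centring on array medians took them to -0.34 and -0.39 and to -0.38 and -0.48, where all 4 were called. Without 1 library, the centred calls of Cox6c were lost in 4 of 8 vehicle fits and 1 of 8 odor fits. Those of Cox8a were lost in 2 of 8 vehicle fits and 0 of 8 odor fits.

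Cox7a2l, a gene linked to supercomplexes of complexes III and IV, was one of the few members higher in the libraries titled GFP+ as deposited. In vehicle it read 12.25, 12.06, 12.15 and 12.12 against 11.95, 11.94, 11.89 and 11.86, with no overlap (0.23, not called), and in odor the groups overlapped (0.16). Its direction depended on the scaling: after median centring the differences were -0.14 and -0.21, also not called.

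**Figure D3:**
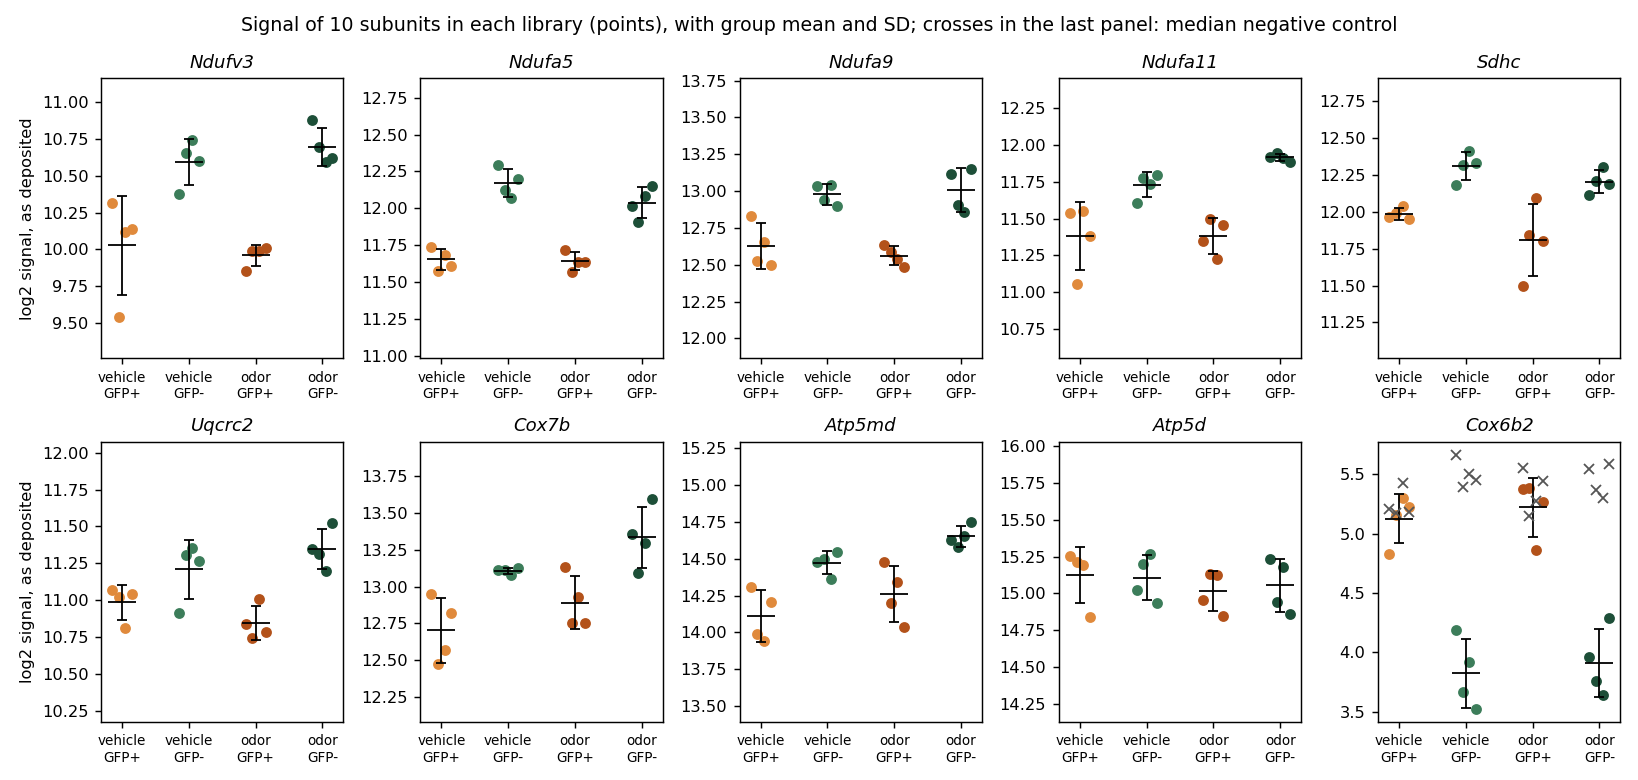
Log2 signal, as deposited, of 10 subunits in each library, with group mean and SD (n = 4); group names on the horizontal axis are those of the titles. The mean of the libraries titled GFP+ lies lower for the first 8 genes in both agents; they overlap those titled GFP- for Atp5d, and for Cox6b2 they lie higher but near the median negative control of the same library (crosses).

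The tissue-restricted isoforms of complex IV were at or near background. Cox4i2, Cox7b2 and Cox8b, made mainly in lung, testis and muscle, did not read above the median negative control in any library, nor did Ndufa4l2, a paralogue of Ndufa4 induced by hypoxia. Cox6b2, the testis isoform, read 4.83, 5.16, 5.30 and 5.23 in vehicle titled GFP+ and 5.38, 5.39, 4.86 and 5.26 in odor titled GFP+. It read 4.19, 3.67, 3.92 and 3.52 in vehicle titled GFP- and 3.96, 3.76, 3.64 and 4.29 in odor titled GFP-. It was above the median negative control in 2 libraries titled GFP+ and in 0 titled GFP-, so the difference that limma called lies between signals of the size of the background, and its size is not given.

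Cox7a1, the muscle isoform, read 7.56, 7.42, 7.56 and 7.40 in vehicle titled GFP+ and 8.0, 8.04, 8.02 and 7.89 in vehicle titled GFP- (-0.50, SE 0.14, limma adjusted p = 0.0185). In odor it read 7.68, 7.38, 7.09 and 7.18 against 7.97, 7.73, 8.03 and 8.24 (-0.66, SE 0.14, adjusted p = 0.00223). The groups did not overlap in either agent. It lay above the median negative control in all 16 libraries and above the 95th percentile in none, and its vehicle call was lost without titled GFP+ replicate 4 (adjusted p = 0.0522). Cox8c, a testis isoform, lay above the median negative control in 15 libraries and above the 95th percentile in none. It was called in vehicle (-0.61, limma adjusted p = 0.0134) and differed by -0.30 in odor (adjusted p = 0.206). Its vehicle call was lost without titled GFP- replicate 1 (adjusted p = 0.0527). The ubiquitous counterparts, 7 genes with Ndufa4 among them, had differences between -0.40 and -0.01 in vehicle and between -0.44 and -0.08 in odor, with Cox7b the one called.

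Complex V, the ATP synthase, had a median of -0.12 in vehicle and -0.28 in odor. Atp5md, a small subunit of its membrane part, was the one called member, in odor. It read 14.47, 14.20, 14.34 and 14.04 against 14.62, 14.58, 14.66 and 14.75 there (-0.39, SE 0.12, limma adjusted p = 0.0326), and 14.31, 13.99, 13.94 and 14.21 against 14.48, 14.50, 14.36 and 14.55 in vehicle (-0.36, adjusted p = 0.0542). Neither pair of groups overlapped, and the odor call was lost in 5 of 8 fits without a library, with an adjusted p of up to 0.103 without titled GFP+ replicate 4.

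Atp5e, the epsilon subunit of the central stalk, differed by -0.39 and -0.60 (limma adjusted p = 0.231 and 0.0524) and was called in odor with the pool as a block (adjusted p = 0.0377), but it reached the 95th percentile of the negative controls in no library. The bright catalytic subunit Atp5b differed by -0.10 in vehicle and -0.13 in odor, was not called, and was lower in all 8 pools, with differences of -0.18 to -0.08. Of the 3 genes for the c ring, whose products are the same mature protein, Atp5g3 differed by -0.17 and -0.28, Atp5g1 by 0.03 and -0.17, and Atp5g2 by 0.17 and 0.16. None of the 3 was called, and after median centring Atp5g2 also lay below 0, at -0.20 and -0.21. Atp5d, the delta subunit, differed by 0.02 and -0.04 as deposited and by -0.35 and -0.40 after median centring, where both were called. Without 1 library, these centred calls were lost in 3 of 8 vehicle fits and 1 of 8 odor fits.

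Promoters of the subunits were read for letters that factors of mitochondrial gene expression are known to bind. Of the 85 genes, 70 matched the RefSeq promoter table of GRCm38.p6, which holds 250 bases before and 50 after each gene's start. Both strands were searched. A gene counted if any of its promoters held the letters. The letters of nuclear respiratory factor 1 (NRF1), GCGCA, any base and GCGC, were found in 17 of the 70 (24.3%), against 5.19% of 27025 genes. The ETS letters CCGGAAG, also bound by the GABP factor, were found in 17 (24.3%, against 9.93%). The YY1 letters AAGATGGC stood in 10 (14.3%, against 3.19%) and the estrogen-related receptor letters TCAAGGTCA in 2 (2.86%, against 0.466%). The SP1 letters GGGGCGGGG stood in 11 (15.7%, against 12.9%). None of these 5 words contains another, though neighbouring matches may share end letters. Genes with the NRF1 letters had a median sort difference of -0.12 in vehicle and -0.28 in odor, and those without them -0.23 and -0.28. Genes with the SP1 letters had medians of -0.08 and -0.14, and those without them -0.24 and -0.29, which was not tested.

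One promoter with NRF1 letters is shown for each of complexes II, IV and V and a pair for complex I, so that the letters can be seen in their setting beside the differences above. Ndufv3, which had the largest difference of complex I, and Cox6b2, the one gene called higher, are shown as promoters without them. Each stretch is the 180 bases before the start, 5' to 3' on the gene's strand, with NRF1 and ETS letters on either strand in capitals. Ndufa11 lies at chr17:56717582-56717761 (plus strand), Ndufb4 at chr16:37654369-37654548 (minus), Sdhd at chr9:50603850-50604029 (minus), Cox6a1 at chr5:115348959-115349138 (minus), Atp5h at chr11:115419920-115420099 (minus), Ndufv3 at chr17:31519935-31520114 (plus) and Cox6b2 at chr7:4753095-4753274 (minus), all in GRCm38.p6.
Ndufa11: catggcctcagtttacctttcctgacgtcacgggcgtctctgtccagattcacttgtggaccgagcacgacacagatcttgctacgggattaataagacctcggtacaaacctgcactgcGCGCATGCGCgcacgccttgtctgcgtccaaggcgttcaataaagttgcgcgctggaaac
Ndufb4: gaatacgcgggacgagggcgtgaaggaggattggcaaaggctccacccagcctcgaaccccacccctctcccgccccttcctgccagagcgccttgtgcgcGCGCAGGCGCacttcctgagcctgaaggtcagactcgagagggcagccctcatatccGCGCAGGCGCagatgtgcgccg
Sdhd: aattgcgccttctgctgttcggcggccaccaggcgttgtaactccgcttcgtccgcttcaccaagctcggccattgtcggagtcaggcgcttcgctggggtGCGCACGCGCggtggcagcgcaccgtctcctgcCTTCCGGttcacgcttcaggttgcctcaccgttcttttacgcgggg
Cox6a1: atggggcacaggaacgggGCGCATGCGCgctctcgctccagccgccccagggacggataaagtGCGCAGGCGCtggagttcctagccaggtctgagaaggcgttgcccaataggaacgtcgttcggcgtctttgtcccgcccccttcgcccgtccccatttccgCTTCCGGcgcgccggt
Atp5h: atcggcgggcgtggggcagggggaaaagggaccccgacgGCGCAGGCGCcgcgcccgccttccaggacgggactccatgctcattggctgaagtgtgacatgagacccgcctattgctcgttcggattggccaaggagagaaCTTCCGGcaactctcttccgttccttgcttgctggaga
Ndufv3: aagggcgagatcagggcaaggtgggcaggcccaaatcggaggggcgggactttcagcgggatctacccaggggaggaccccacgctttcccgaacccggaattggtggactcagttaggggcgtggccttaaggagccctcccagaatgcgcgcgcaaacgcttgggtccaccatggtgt
Cox6b2: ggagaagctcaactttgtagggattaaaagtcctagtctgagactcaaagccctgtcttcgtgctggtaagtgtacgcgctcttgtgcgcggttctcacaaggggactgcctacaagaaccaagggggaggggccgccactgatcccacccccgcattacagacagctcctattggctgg
Ndufa11 and Ndufb4 were called lower in odor, while Sdhd (-0.28 in odor), Cox6a1 (-0.08) and Atp5h (-0.14) were not. Among the promoters shown, those with these letters thus belonged to called and uncalled genes alike. They are a part of the 17 genes with NRF1 letters, and calls over all 17 were not counted. No NRF1 or ETS letters stand in the stretches of Ndufv3 and Cox6b2, which says only that these words are not in this window.

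Markers of other cell types moved with the sort far more than the subunits did. Their counts stand beside 10.2% of all probe sets called higher in vehicle and 11% in odor. Of 19 macrophage and neutrophil markers, 19 were called higher in the libraries titled GFP+ in vehicle and 18 in odor. Their mean signal was 11.47 to 12.92 in the libraries titled GFP+ and 5.47 to 6.74 in those titled GFP-. There 4 of the 19 did not read above the median negative control in any library of either agent. Genes of progenitors and dividing cells, 10 measured, were all called higher in both agents, with means of 7.63 to 8.25 against 5.41 to 5.73. Of these 10, 5 in vehicle and 4 in odor were at or below the negative controls' median in every library titled GFP-, and 2 in every library titled GFP+. Of 16 immature neuron markers 10 and 8 were higher (12.16 to 12.88 against 10.69 to 10.88), of 10 sustentacular markers 8 and 8 (9.05 to 10.94 against 7.51 to 8.23), of 8 microvillar markers 7 and 8 (7.38 to 8.86 against 4.50 to 4.95, with 4 and 3 of the 8 at or below that median throughout titled GFP-), and of 9 lymphocyte markers 8 and 7 (6.37 to 7.76 against 4.43 to 4.55, with 8 of the 9 at or below the negative controls' median in every library titled GFP-). Of 3 erythroid markers 2 and 2 were higher (8.28 to 9.19 against 6.79 to 7.26).

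The 25 mature olfactory neuron markers stayed close to each other between the sorts, with means of 15.62 to 16.02 in titled GFP+ and 15.95 to 16.07 in titled GFP-. Their median differences were -0.17 in vehicle and -0.26 in odor, close to the -0.19 and -0.28 of the subunits. With arrays centred on the mean of these markers, the subunits' medians were still -0.12 and -0.13. Those of all probe sets were then -0.06 and 0.01. Of the 25, 4 and 5 were called lower, against 7.16% and 9.86% of all probe sets. In each agent 1 was called higher, Calb2, against 10.2% and 11%. Each of the 25 read above the median negative control in at least 1 library of every group. The part of these cell types in the subunits' differences was not tested.

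Genes that act beside the subunits gave mixed values, and their counts stand beside 7.16% of all probe sets called lower in vehicle and 9.86% in odor, with 10.2% and 11% higher. Of 42 assembly factors, the helpers that build the complexes, 5 were called lower in vehicle and 13 in odor, with medians of -0.19 and -0.38. In odor they included Ndufaf6 (-0.72) and Ndufaf1 (-0.61) for complex I, Sdhaf4 (-0.59) for complex II and Sdhaf1 (-0.59). In vehicle they included Ndufaf7 (-0.50), Tmem186 (-0.50) and Ttc19 (-0.47). Of 21 mitochondrial import genes, limma called 2 in odor, Timm10 (-0.80) and Tomm7 (-0.57), and 0 in vehicle. Of 12 partners such as cytochromes, 2 of which belong to the 85, it called 0 in vehicle and 3 in odor. Those were Cyc1 (-0.47), Atpif1 (-0.31) and Atp5md. Cyc1 is cytochrome c1, itself a subunit of complex III whose symbol the rule does not take. After median centring in vehicle 17 of the 21 and 12 of the 12 were called lower, under a scaling that calls 62.5% of all probe sets lower.

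Of 13 regulators of mitochondrial biogenesis, Ppargc1a, a coactivator of mitochondrial genes, and Tfam, a transcription factor and packaging protein of mitochondrial DNA, were the 2 called lower. Ppargc1a differed by -0.78 and -0.74 (limma adjusted p = 0.00211 and 0.00299), and Tfam by -0.44 and -0.58 (adjusted p = 0.0477 and 0.00962). Nrf1 and Gabpa, whose letters were searched above, differed by 0.10 and 0.14 and by 0.21 and 0.16, with none called. Of 18 genes of the tricarboxylic acid cycle, Idh3a was called lower in both agents (-0.36 and -0.42) and Fh1 in odor (-0.54), and Idh2 was called higher in odor (1.06). The counts of both lists stand beside 7.16% of all probe sets called lower in vehicle and 9.86% in odor, with 11% higher in odor.

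Some genes of glycolysis went the other way. Of 16 measured genes, 3 were called higher in vehicle and 4 in odor, against 10.2% and 11% of all probe sets. The genes called higher included Ldha, which makes lactate (3.19 and 3.53), Hk2 (0.73 and 1.00) and Pgk1 (0.72 and 0.80). The neuronal enolase Eno2 was called lower in odor (-0.75). The mean signal of the 16 was 12.07 to 12.31 in titled GFP+ and 11.82 to 12.04 in titled GFP-. The log2 of their summed signal did not read higher in titled GFP+. It was 18.71 to 18.88 against 18.77 to 18.89 in vehicle, and 18.60 to 18.81 against 18.85 to 18.88 in odor. After median centring 1 and 4 of the 16 were called higher and 10 and 11 lower, beside 62.5% and 61.6% of all probe sets called lower. Ldha and Hk2 are also made in white blood cells, and the markers of those cells moved with them, as given above; their part was not tested.

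**Figure D4:**
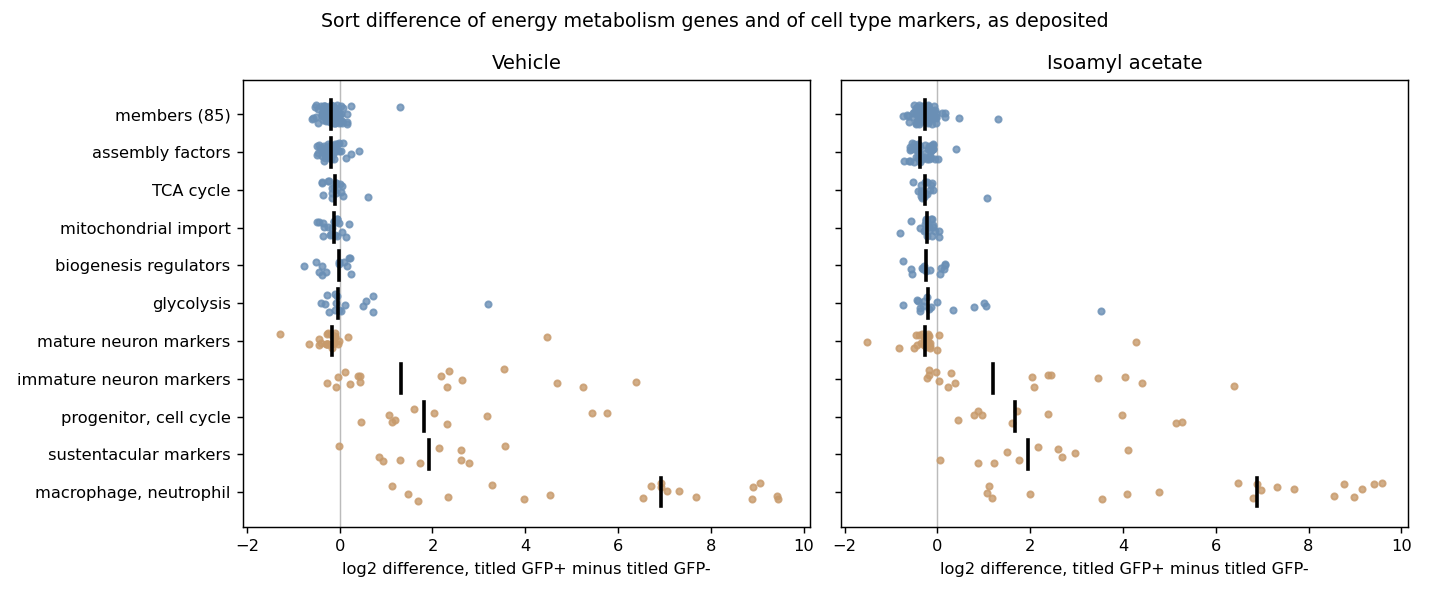
Sort difference (log2, as deposited) of the genes of each list in vehicle and isoamyl acetate mice; each point is a gene and black bars are list medians. The subunits, their assembly factors and the mature neuron markers lie close to 0, with medians of -0.19, -0.19 and -0.17 in vehicle, while macrophage and neutrophil markers have a median of 6.92 there.

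Isoamyl acetate left the subunits without a called change in either sort. In the libraries titled GFP+, limma called 0 of 85 (against 0.00901% of all probe sets), 1 had an unadjusted p below 0.05, and the median difference of odor minus vehicle was 0.01. Centred on neuron markers it was 0.08, beside 0.06 over all probe sets, and after quantile normalization 0.04. It turned to -0.02 without vehicle titled GFP+ replicate 2. For 71 of the 85 the 95% interval of the difference lay within 0.5 of 0. Ndufab1, the mitochondrial acyl carrier protein, had the lowest p (difference 0.28, SE 0.11, limma adjusted p = 0.968). It read 12.72, 13.00, 12.88 and 12.71 with odor and 12.58, 12.67, 12.44 and 12.50 with vehicle, without overlap, as did 1.27% of all probe sets in that direction. Sdha, with the values given above, was the one member with no overlap in the other direction, lower with odor, as were 1.36% of all probe sets. Cox7a2 (0.26) and Ndufa7 (0.40) followed, at the same adjusted p.

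In the libraries titled GFP-, limma again called 0 of 85 (against 0.018% of all probe sets), and 1 had an unadjusted p below 0.05. The differences leaned upward: 69 of 85 were above 0, against 49.7% of all probe sets and 47.9% of the brighter ones, with a median of 0.09 beside -0.00 over all. By complex the medians were 0.10 for I, 0.10 for II, 0.12 for III, 0.09 for IV and 0.08 for V. Leaving out odor titled GFP- replicate 4 brought the median over the 85 to 0.05. The mean signal of the 85 was 12.16, 11.98, 12.01 and 12.19 with odor and 12.05, 12.00, 11.99 and 11.99 with vehicle. Only odor pools 1 and 4 thus lay above all the vehicle pools. Cox8c (-0.35, SE 0.16, limma adjusted p = 1), Ndufb10 (0.34) and Atp5e (0.37) had the lowest p, and all 3 are dim. Atp5md and Ndufa11 were the members whose groups did not overlap, both higher with odor, against 1.09% of all probe sets. For 62 of 85 the 95% interval lay within 0.5 of 0.

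**Figure D5:**
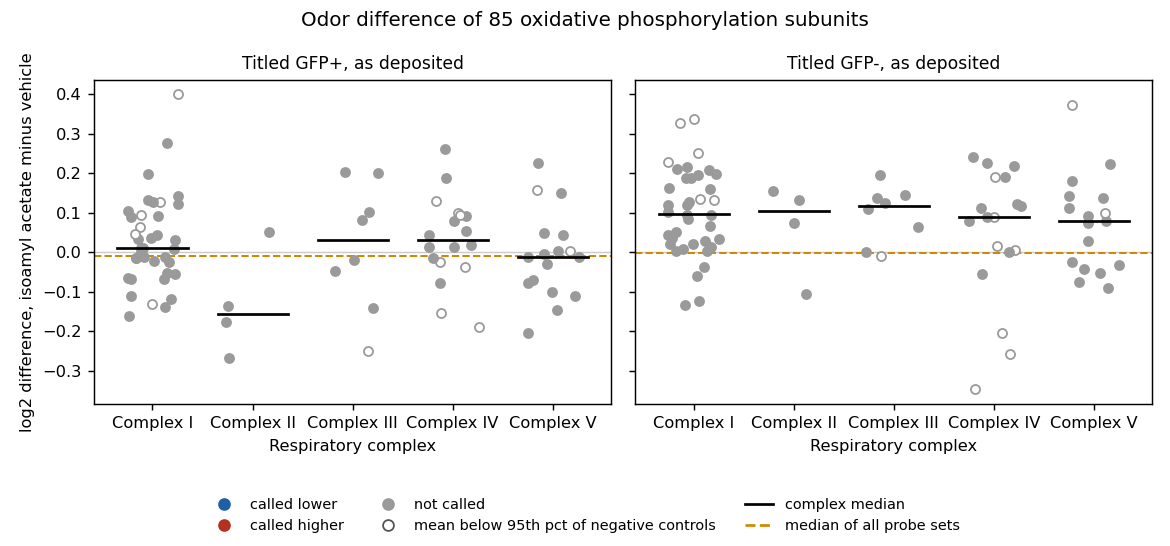
Difference of isoamyl acetate minus vehicle (log2, as deposited) for each of the 85 subunits, by respiratory complex, within the libraries titled GFP+ (left) and titled GFP- (right); open points have a mean below the 95th percentile of the negative controls, black bars are complex medians and the dashed line is the median of all probe sets. No point was called; on the right 69 of 85 lie above 0.

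The interaction, which asks whether the sort difference changed with odor, gave 0 calls among the 85 by limma (against 0.0045% of all probe sets), 0 at an unadjusted p below 0.05, and a median of -0.06 beside -0.02 over all probe sets. Centred on neuron markers that median turned to 0.02, beside 0.07 over all probe sets, and after quantile normalization it was -0.03. The median was -0.10 without vehicle titled GFP+ replicate 3 and -0.03 without vehicle titled GFP+ replicate 1. The lowest p-values were those of Ndufb10 (-0.47, SE 0.24), Sdha (-0.43, SE 0.22) and Uqcrc2 (-0.28, SE 0.18), each with a limma adjusted p of 1. For 37 of 85 the 95% interval lay within 0.5 of 0, and for the others it did not exclude a difference of that size. The 2 sort comparisons use separate pools, while the odor comparisons and the interaction share libraries with them.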

How the data were processed

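RNA of 50 to 100 ng from sorted cells was put on Clariom S arrays, 1 per library. The authors' deposited values are log2 signals per probe set, for which the submitters' processing notes name Affymetrix Expression Console with no version, and their normalization step was not given in the sources used here. They run from 1.68 to 19.33 over 28846 probe sets. The 6640 control probe sets were left out, and 22206 were tested. Gene symbols came from the platform annotation. The members and gene lists were chosen with earlier results of these data known.

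Groups followed the titles. limma 3.58.1 (R 4.3.3) fitted 4 group means to all 16 arrays, and eBayes p-values were adjusted by Benjamini-Hochberg over all tested probe sets, with calls at an adjusted p of at most 0.05. All adjusted p-values in the text come from this fit or its named alternatives. Any member could be named; values were set out for up to 3 called members per complex and direction with the largest differences, the largest and smallest difference of a complex, isoform pairs and, where none was called, the 3 with the lowest p. Other called members, Cox7a2l and Atp5g2 were added after their values were seen. The statistics were tested on simulated data. Both libraries of a pool share mice: correlations of their deviations from the group means were 0.158 to 0.399 over the 8 pools. Libraries that share only a replicate number across agents correlated at 0.174 to 0.278 in titled GFP+ and 0.0729 to 0.406 in titled GFP-; the labels do not say what a number marks. Alternatives were other scalings, a block (the pool for sort differences and the interaction, the replicate number for odor against vehicle), eBayes with a trend and robust prior, brighter probe sets alone, and each library left out. The number of arrays limits the precision, and no 2 arrays held identical values.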

Additional observations from a re-analysis of the deposited data

Results flagged for a closer look

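In 7 of 168 groups of 4 libraries, a named subunit had 1 library standing far from the other 3; chance gives about 1 in 20 groups. Atp5d read 14.84 in vehicle titled GFP+ replicate 4, beside 15.19 to 15.25 in the others. Cox5a read 12.88 in odor titled GFP+ replicate 3, beside 12.81 to 12.82 in the others. Cox5a read 12.98 in odor titled GFP- replicate 2, beside 13.20 to 13.25 in the others. Ndufa2 read 11.08 in odor titled GFP+ replicate 2, beside 10.65 to 10.69 in the others. Ndufs4 read 12.49 in vehicle titled GFP+ replicate 3, beside 12.61 to 12.63 in the others. Ndufv3 read 9.85 in odor titled GFP+ replicate 1, beside 9.99 to 10.01 in the others. Uqcrb read 14.86 in vehicle titled GFP+ replicate 3, beside 15.56 to 15.67 in the others.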

How the results depend on the processing

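No alternative called a subunit in the odor comparisons or the interaction. Over the single genes named, in all 5 comparisons, 529 values kept their direction and side of the threshold under the scalings, tests and filters, 122 became called, 25 lost their call and 31 turned direction, and in fits without 1 library 1368 kept both, 13 became called, 93 lost their call and 30 turned. The fits without 1 library after median centring were chosen after seeing the data. Of the values that turned, none was called both before and after.

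The number of subunits called lower in vehicle was 78 after median centring, 12 after quantile normalization, 3 centred on mature neuron markers, 10 with the replicate block of the pool, 79 with block and median centring, 10 with a trend and robust prior, and 9 of 69 brighter members; leaving out 1 library gave 3 (titled GFP- replicate 1) to 8 (titled GFP+ replicate 1). In odor it was 80, 16, 1, 23, 80, 20 and 19, and 8 (titled GFP+ replicate 4) to 17 without a library. Block and median centring together called 15005 of all 22206 probe sets lower in vehicle and 14643 in odor. The trend and robust prior called 6.9% and 9.93% of all probe sets lower, against 11.8% and 23.5% of the subunits. Shares over all probe sets under the other scalings, the block and the brighter probe sets are given above. With brighter members alone 0 were called higher in either agent, since Cox6b2 is not among them, and without odor titled GFP- replicate 4 there were 2, range 1 to 2, Cox6a2 being the other. The member median in vehicle was -0.56 after median centring with or without the block, and in odor -0.64 in both and -0.13 centred on neuron markers. For odor against vehicle the block was the replicate number: it gave 0 subunit calls, and in titled GFP+ 1651 of all probe sets had an unadjusted p below 0.05, against 1072 without it.

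After median centring, with or without the block, the vehicle differences of Atp5d (-0.35), Atp5g2 (-0.20), Cox6a2 (-0.20), Cox6c (-0.34) and Cox7a2l (-0.14) and the odor differences of Atp5g2 (-0.21) and Cox7a2l (-0.21) fell below 0. Quantile normalization turned Cox6a2 (-0.12), Cox6c (-0.010), Cox8a (0.0053) and Sdhd (0.018) in vehicle and Uqcrb (0.024) in odor. Centring on neuron markers turned Cox8a (0.055), Ndufa10 (0.036), Sdha (0.045), Sdhd (0.053) and Uqcrq (0.014) in vehicle, and Atp5d (0.11), Cox6a1 (0.064), Cox6c (0.12), Cox8a (0.034), Ndufs3 (0.091), Uqcrb (0.12) and Uqcrq (0.013) in odor. Without 1 vehicle library the differences ran from -0.039 to 0.11 for Atp5d, -0.037 to 0.12 for Cox6c, -0.070 to 0.051 for Cox8a, -0.095 to 0.059 for Ndufa10, -0.11 to 0.081 for Sdha, -0.076 to 0.042 for Sdhd and -0.18 to 0.095 for Uqcrb. Without 1 odor library they ran from -0.10 to 0.022 for Atp5d, -0.082 to 0.065 for Cox6c, -0.38 to 0.0038 for Ndufa7, -0.16 to 0.086 for Ndufs3, -0.10 to 0.095 for Uqcrb and, after median centring, -0.015 to 0.27 for Cox6a2. Averaging all probe sets of a gene changed nothing, since each member has 1. The cause of these changes was not tested, and signals near the negative controls limit the dim members.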
